A study of Mus musculus with 250 samples.

Results

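The genes described here are 45 genes of mitosis and the mitotic spindle, taken from a list of names and measured through every probe set that carries only that gene's symbol. The list gave 44 measured genes among the 18194 genes of the array. The missing member, Ccnb1, which encodes cyclin B1, was not measured here. The 44 genes were read by 104 probe sets, and 30 of them had more than 1. Unless stated, a gene's values are those of its brightest probe set, by mean signal over all arrays.

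Whole tissue was profiled on Affymetrix Mouse Genome 430 2.0 arrays, which read RNA as fluorescence intensity. Tumor-bearing mice were female FVB mice that carried both MMTV-rtTA and TetO-NeuNT, so that doxycycline turns on NeuNT, an activated rat form of the receptor gene Erbb2, where the MMTV promoter drives rtTA, chiefly in mammary epithelium. Control mice were female FVB littermates with TetO-NeuNT alone, matched for age and cage to a named tumor-bearing mouse. All mice, controls included, drank doxycycline (2 mg/mL, in 5% sucrose). It was given from the age of 8 weeks, and both mice of a pair were killed once the tumor measured 1 cm. There were 25 matched pairs in each of 5 tissues (breast with its tumor, liver, spleen, blood cells without plasma, and thymus), 250 arrays in all. The mice of a group are separate animals by their labels. Changes are log2 differences, tumor-bearing minus matched control, given with their standard error over 25 pairs unless another number of pairs is stated. A gene rose or fell where limma's adjusted p (Benjamini-Hochberg over all 18194 genes of the tissue) was under 0.05. Counts at an unadjusted p under 0.05 were made for members and lists only, so they have no share of all genes beside them.

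Mitosis begins when Cdk1, bound to cyclin A or cyclin B, phosphorylates proteins throughout the cell. Chromosomes condense, kinetochores attach them to spindle microtubules, and a checkpoint holds the anaphase promoting complex inactive until all are attached. The complex then marks cyclin B and securin for destruction, sisters separate, and cytokinesis cuts the cell into daughter cells. Most of these genes are transcribed mainly late in the cycle, in G2 and M, so their RNA is abundant in tissues where many cells divide, such as bone marrow, the thymic cortex, rodent spleen with its erythropoiesis, and tumors. In quiescent adult liver, mature blood cells and resting mammary fat pad it is scarce.

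By role, 10 members start mitosis: the kinase Cdk1, its cyclin partners Ccna2, Ccnb1 and Ccnb2, the phosphatase Cdc25c that activates it, the kinases Plk1, Aurka and Nek2 of the centrosome cycle, the kinase Melk, and Foxm1, a transcription factor that activates genes of this class. Chromosomes are shaped by 5 members, namely Top2a, which untangles DNA, the condensin subunits Smc2, Smc4 and Ncapg, and Mki67, which coats the chromosome surface and encodes the Ki-67 antigen. Another 6 members belong to the centromere and kinetochore: the centromeric histone Cenpa, the motor Cenpe, Cenpf, and the microtubule-binding complex members Ndc80, Nuf2 and Spc25. The spindle checkpoint has 4 (Bub1, Bub1b, Ttk and Mad2l1), and the chromosomal passenger complex, which corrects wrong attachments, has 4 (the kinase Aurkb with Birc5, Incenp and Cdca8). There are 6 kinesin motors, with Kif11 pushing the spindle poles apart, Kif4 and Kif22 acting on chromosome arms, Kif2c shortening microtubules, and Kif20a and Kif23 acting at the midzone. Spindle microtubules are nucleated, bundled or focused by 5 proteins, Tpx2, Prc1, Nusap1, Aspm and Hmmr. Anaphase needs 3 members, Cdc20 (which activates the anaphase promoting complex), Ube2c (its ubiquitin-conjugating enzyme) and Espl1 (separase), and cytokinesis needs Anln and Ect2.

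Genes of this class are known to share a promoter layout in which a cell cycle genes homology region (CHR) near the start site recruits a repressing complex in resting cells and an activating complex in dividing ones, beside CCAAT boxes bound by NF-Y. Of the 45 members, 37 were found in RefSeq's promoter table (GRCm38.p6), with 39 promoters that run from 250 bases before to 50 bases after the start. The CHR core was searched as TTTGAA and TTCAAA, and the CCAAT box as CCAAT and ATTGG, which covers both strands. At least 1 CHR core stood in 30 of the 39 member promoters (76.9%) and in 17.9% of all 32851 promoters of that length. A CCAAT box stood in 31 (79.5%), against 37.4% of all promoters, and both motifs stood together in 27 (69.2%), against 6.95%. The 2 motifs shared bases in 1 member promoter. After the matches had been seen, position was counted too, and a CHR core lay between 50 bases before and 50 after the start in 28 member promoters (71.8%), against 4.94% of all. CCAAT boxes on the same strand, 31 to 33 bases apart, were found in 8 (20.5%), against 0.794%. These are letter matches in a fixed window, not tests of binding.

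The 5 promoters below are shown because they belong to members on which the results turn. Each is read 5′ to 3′ along the gene in GRCm38.p6 (RefSeq), and capitals mark CHR cores and CCAAT boxes.
Cdk1 (chr10:69352863-69353162, minus strand): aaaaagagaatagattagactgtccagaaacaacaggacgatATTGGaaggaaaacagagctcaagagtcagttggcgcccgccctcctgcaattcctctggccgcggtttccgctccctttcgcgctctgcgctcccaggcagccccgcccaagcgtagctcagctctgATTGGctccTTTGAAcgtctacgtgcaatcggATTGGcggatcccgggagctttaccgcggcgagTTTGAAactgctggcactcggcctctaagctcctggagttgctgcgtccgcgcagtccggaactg
Ccnb2 (chr9:70421505-70421804, minus strand): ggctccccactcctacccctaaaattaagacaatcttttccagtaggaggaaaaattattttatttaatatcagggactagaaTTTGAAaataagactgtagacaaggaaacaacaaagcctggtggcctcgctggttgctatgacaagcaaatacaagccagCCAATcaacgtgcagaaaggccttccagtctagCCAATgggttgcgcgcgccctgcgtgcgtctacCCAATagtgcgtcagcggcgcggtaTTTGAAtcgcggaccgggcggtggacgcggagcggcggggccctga
Top2a (chr11:99024140-99024439, minus strand): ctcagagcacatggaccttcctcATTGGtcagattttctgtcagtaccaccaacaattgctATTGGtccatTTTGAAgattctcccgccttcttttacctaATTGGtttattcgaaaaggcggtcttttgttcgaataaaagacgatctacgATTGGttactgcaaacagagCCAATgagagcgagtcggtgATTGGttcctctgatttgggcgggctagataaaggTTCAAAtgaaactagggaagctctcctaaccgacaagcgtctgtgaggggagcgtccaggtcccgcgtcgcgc
Cdc20 (chr4:118437294-118437593, minus strand): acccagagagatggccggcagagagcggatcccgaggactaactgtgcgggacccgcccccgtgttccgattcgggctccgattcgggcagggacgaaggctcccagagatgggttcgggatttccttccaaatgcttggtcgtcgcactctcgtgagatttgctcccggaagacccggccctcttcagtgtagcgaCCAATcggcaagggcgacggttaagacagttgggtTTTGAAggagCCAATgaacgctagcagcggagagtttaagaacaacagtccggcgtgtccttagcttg
Nusap1 (chr2:119618048-119618347, plus strand): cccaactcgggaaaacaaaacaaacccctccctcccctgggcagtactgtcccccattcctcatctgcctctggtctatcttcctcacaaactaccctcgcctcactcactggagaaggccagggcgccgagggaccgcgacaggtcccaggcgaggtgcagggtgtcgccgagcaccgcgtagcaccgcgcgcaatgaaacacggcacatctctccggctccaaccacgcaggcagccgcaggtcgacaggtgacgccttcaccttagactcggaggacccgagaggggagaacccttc
The Ccnb2 window has 3 CCAAT boxes that begin 87, 54 and 21 bases before the start, followed by a CHR core at base 5 after it. Nearest to the start, Cdk1 has CCAAT boxes 80 and 48 bases before it and a CHR core 15 bases before it. Top2a has 6 CCAAT boxes, all more than 50 bases upstream, and its nearer CHR core begins 23 bases before the start. Cdc20 has its CHR core 18 bases before the start, between its CCAAT boxes. Nusap1, which rose with these genes in breast, spleen and liver, has neither motif in this window.

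Of the 250 arrays, 18 stood apart from their own group by correlation over all genes (14 control and 4 tumor-bearing arrays, in 17 pairs). Member counts and correlations with Top2a are given with and without their pairs where they move. Marker lists, pathway lists, RNA quality ratios, probe set counts and ranges by group include these pairs unless stated. The comparisons of tissues by leading parts of the sample IDs include them too. Some go against their tissue label. The arrays labelled spleen control 13 and 21 correlated best with breast, spleen tumor-bearing 21 with thymus (r = 0.982), thymus control 11 with breast (r = 0.926) and thymus control 20 with spleen (r = 0.989). In breast, the Erbb2 probe set rose by 1.28 ± 0.15 (adjusted p = 2.93e-08) and was higher in 23 of 25 pairs, but lower in the mouse labelled tumor-bearing in pairs 1 and 2 (-0.69 and -0.61). Whether this probe set reads the rat transgene is not known from the labels. Of the pair 1 and pair 2 arrays, the one labelled control in pair 1 and the one labelled tumor-bearing in pair 2 stood apart from their groups, and the array labelled control in pair 2 held the highest control value of 40 of the 44 members. Array medians differ between tissues in a way that looks like separate normalization, so levels are compared only within a tissue. In all 5 tissues, fewer cells of a type and less RNA per cell cannot be told apart in bulk RNA.

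**Figure D1:**
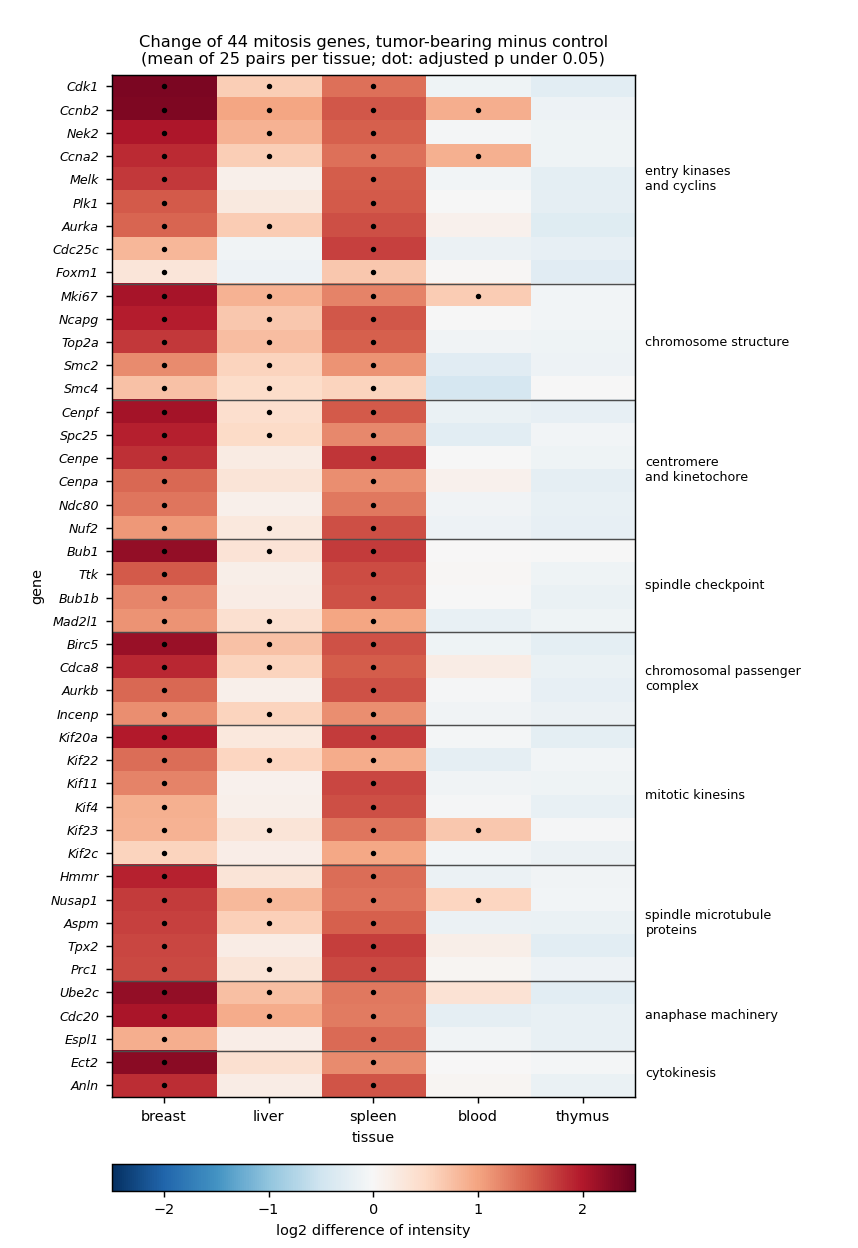
Heat map of the mean change of each of the 44 measured members (down the page, by role) in each tissue (across), in log2 units, tumor-bearing minus control, over 25 pairs. Dots mark an adjusted p under 0.05: all 44 are marked in breast and spleen, 25 in liver, 5 in blood and 0 in thymus.

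In breast, all 44 measured members rose in tumor-bearing mice. In that tissue 30% of all 18194 genes rose and 32.3% fell, so 62.3% passed the test. The median member change was 1.69 on the log2 scale, with members between 0.31 and 2.36, while the median of all genes was -0.03. Cdk1, which drives entry, lay between 8.59 and 10.59 (median 9.38, log2 intensity) in tumor-bearing breast, against 5.45 to 9.93 (median 6.87) in control breast. Its groups overlapped, with 3 of 25 tumor-bearing mice above the highest control. In breast such counts lean on the pair 2 array labelled control, which held the highest control value of 40 of the 44 members. Without the pairs with outlying arrays, the highest control value of Cdk1 was 8.92 and the lowest tumor-bearing value 8.59 (22 pairs). The change of 2.36 ± 0.21 (5.13-fold, adjusted p = 3.49e-10) was the largest among the members over all 25 pairs, and 24 of 25 pairs were higher in the tumor-bearing mouse. Without the pairs with outlying arrays, Ccnb2 was at 2.58 and Cdk1 at 2.53 (22 pairs). Ccnb2, a cyclin partner of Cdk1, lay between 8.35 and 10.45 (median 9.38) in tumor-bearing breast and between 4.89 and 9.73 (median 6.87) in control breast. The groups overlapped here as well, and 24 pairs were higher. Ccnb2 rose 5.04-fold (2.33 ± 0.21, adjusted p = 3.67e-10).

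Ect2, which starts the cleavage furrow in cytokinesis, lay between 7.19 and 9.19 (median 8.35) in tumor-bearing breast and between 5.06 and 8.36 (median 5.68) in controls, and 11 tumor-bearing mice lay above every control. It rose by 2.26 ± 0.16 (adjusted p = 3.45e-11). The checkpoint kinase Bub1 spanned 6.15 to 8.41 (median 7.62) in tumor-bearing and 3.85 to 7.88 (median 5.07) in control mice. Its change was 2.21 ± 0.18 (adjusted p = 1.03e-10), with overlap between the groups. Ube2c, the conjugating enzyme of the anaphase promoting complex, lay between 8.52 and 10.85 (median 9.74) in tumor-bearing mice, against 5.997 to 10.38 (median 7.57) in controls. It rose by 2.19 ± 0.22 (adjusted p = 2.89e-09), and 4 tumor-bearing mice were above the highest control. Mki67, whose protein is the usual histological marker of dividing cells, lay between 8.75 and 10.95 (median 9.91) in tumor-bearing mice, against 5.48 to 10.56 (median 7.83) in controls, a change of 2.06 ± 0.21 (adjusted p = 3.92e-09). Top2a lay between 7.46 and 9.45 (median 8.72), against 5.04 to 9.85 (median 6.80) in controls, a change of 1.78 ± 0.19 (adjusted p = 9.8e-09). With all 25 pairs kept, no tumor-bearing mouse was above the highest control of Top2a.

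Sizes of change varied within most roles in breast, although differences between members were not tested. The anaphase genes Cdc20 and Ube2c rose by 2.03 and 2.19, while separase (Espl1) rose by 0.92. Among the entry genes, the kinases Nek2 (2.03), Melk (1.77), Plk1 (1.54) and Aurka (1.45) and the cyclin Ccna2 (1.87) rose with Cdk1, and the Cdk1-activating phosphatase Cdc25c rose by 0.83. The smallest change was that of Foxm1, at 0.31 ± 0.08 (adjusted p = 0.00156), higher in 19 of 25 pairs. At kinetochores, Cenpf (2.08), Spc25 (1.95) and Cenpe (1.82) had larger values than Ndc80 (1.34) and Nuf2 (1.09), although Ndc80, Nuf2 and Spc25 sit in 1 complex. Kinesin changes lay between 0.56 (Kif2c) and 1.98 (Kif20a). All 5 spindle microtubule proteins lay close together, between 1.64 (Prc1) and 1.92 (Hmmr). In the passenger complex Birc5 rose by 2.15, Cdca8 by 1.89, Aurkb by 1.44 and Incenp by 1.16.

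In single pairs, 43 of the 44 members were higher in at least 20 of 25 pairs, against 24.3% of all genes, and 0 were lower in as many, against 25.7%. All 44 members were higher in 16 pairs. The median member change per pair ran from -0.10 to 2.73. The lowest values were those of pairs 1 and 2 (0.07 and -0.10), the pairs with lower Erbb2. Without the 3 pairs with outlying arrays (control 1, tumor-bearing 2 and control 4), all 44 members again rose (22 pairs, median 1.86), and 31.8% of all genes did. There, 1 of the 44 members, the condensin subunit Ncapg, had every tumor-bearing mouse above every control. It lay at 6.27 to 8.17 (median 7.08) in tumor-bearing mice and 4.28 to 6.17 (median 4.87) in controls. The same held for 2.97% of all genes, so this count lies near the share of all genes. A further 788 of the 18194 genes, with 0 members, had every tumor-bearing mouse below every control. With all 25 pairs, the groups overlapped for all 44 members, and 0% of all genes had every tumor-bearing mouse above every control. Without pairs 1 and 2, all 44 members rose too (23 pairs).

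Other cell types moved in the same samples. In breast 11 of 12 mammary and luminal epithelial markers rose, with a summed intensity of 19487 to 58932 (median 45123) in tumor-bearing mice and 4758 to 47450 (median 12832) in controls. All 9 measured adipocyte markers fell, with a summed intensity of 3802 to 59966 (median 15051) in tumor-bearing mice and 34009 to 94975 (median 69731) in controls. All 9 B cell, all 9 T cell and all 8 skeletal muscle markers fell as well. The part of these cell types in the member changes was not tested. The 3′ to 5′ log2 ratio of the Gapdh control probe sets, a measure of RNA integrity, was 0.03 ± 0.45 in tumor-bearing and 0.79 ± 0.78 in control breast (SD, n = 25 each), a difference of -0.76 ± 0.17 (permutation p = 0.00012, adjusted p = 0.0006 over 10 tests). Its part in the result was not tested either. Sample IDs begin with digits that fall into 2 blocks, called earlier (10 pairs) and later (15 pairs). These names follow the order of the digits and are not read here as dates or batches. All breast results were also tested between the blocks. Members changed by a median of 1.99 in the later and 1.24 in the earlier block. The difference between blocks passed for Plk1 (1.98 later, 0.87 earlier, adjusted p = 0.0314) and Aurka (1.85 later, 0.86 earlier, adjusted p = 0.0435), among 3.91% of all genes, and 25 members had an unadjusted p under 0.05. Pairs 1 and 2, with the lower Erbb2 in the tumor-bearing mouse, both lie in the earlier block. Both were left out in tests added after seeing the data. Without the 3 pairs with outlying arrays, which include them, members changed by a median of 2.03 in the later (14 pairs) and 1.59 in the earlier block (8 pairs). The test between blocks then called 0 members by limma, with 13 at an unadjusted p under 0.05, and 2% of all genes. Plk1 differed by 0.82 ± 0.27 (adjusted p = 0.122) and Aurka by 0.62 ± 0.25 (adjusted p = 0.224) in that limma fit. Without pairs 1 and 2 alone, limma called 0 members (8 at an unadjusted p under 0.05) and 1.01% of all genes. Among the 44 members, 42 rose in the earlier block alone, where 3317 of all 18194 genes rose.

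**Figure D2:**
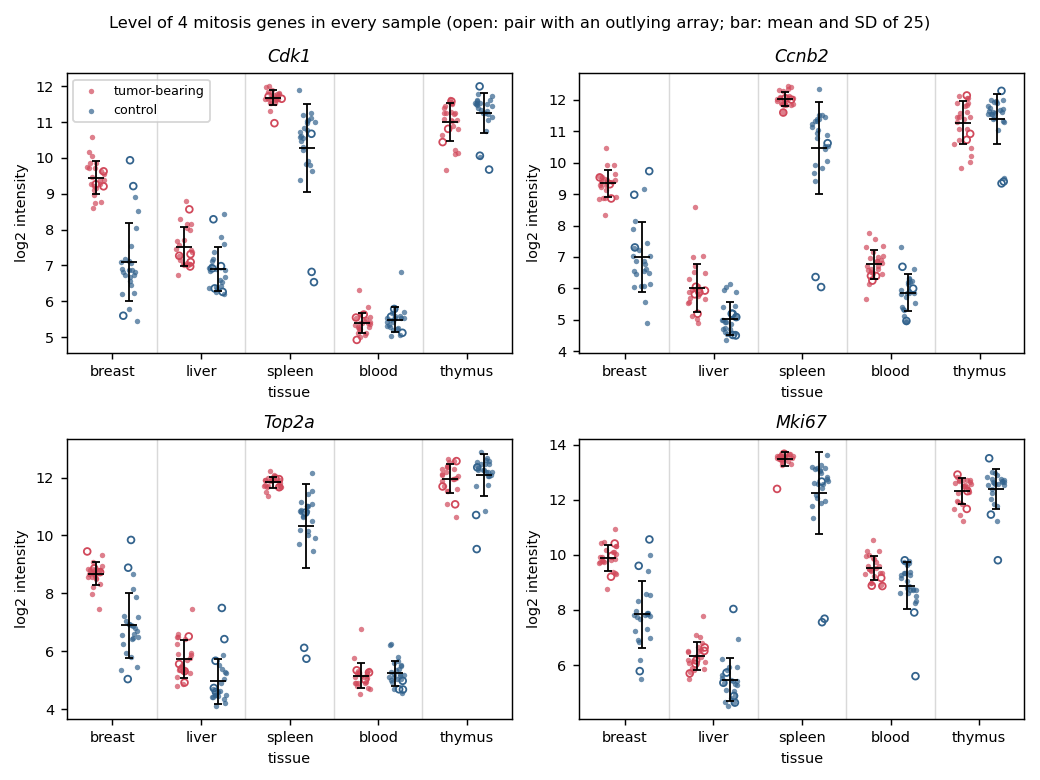
Log2 intensity of Cdk1, Ccnb2, Top2a and Mki67 in every sample, with tumor-bearing mice (red) left of controls (blue) in each tissue and bars for the mean and SD of 25 mice. Open circles are pairs with an outlying array. In breast and spleen most tumor-bearing mice lie above most controls, with overlap, and in thymus the groups overlap over most of their range.

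Spleen of tumor-bearing mice, an organ without the tumor, showed the same breadth. All 44 measured members rose there, where 22.4% of all genes did, with a median of 1.50 (0.56 to 1.78) against 0.00 for all genes. The kinetochore motor Cenpe lay between 9.78 and 10.80 (median 10.39) in tumor-bearing spleen and between 4.79 and 10.63 (median 8.91) in control spleen. Its groups overlapped, although all 25 pairs were higher in the tumor-bearing mouse. Cenpe rose by 1.78 ± 0.24 (adjusted p = 1.01e-06). The midzone kinesin Kif20a spanned 8.59 to 9.67 (median 9.33) in tumor-bearing and 4.36 to 9.20 (median 7.74) in control mice, and 16 tumor-bearing mice lay above every control. Its change was 1.75 ± 0.21 (adjusted p = 2.1e-07). Bub1 lay between 10.37 and 11.31 (median 10.86) in tumor-bearing mice, against 4.99 to 11.08 (median 9.42) in controls, a change of 1.75 ± 0.26 (adjusted p = 4.33e-06). The groups overlapped, and 5 tumor-bearing mice were above the highest control.

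Tpx2, which nucleates spindle microtubules around chromosomes, lay between 10.04 and 11.18 (median 10.71) in tumor-bearing spleen and between 5.31 and 10.85 (median 9.35) in controls, a change of 1.72 ± 0.23 (adjusted p = 9.21e-07). Cdc25c lay between 7.09 and 8.76 (median 8.35), against 5.11 to 8.30 (median 6.50) in controls. It rose by 1.70 ± 0.15 (adjusted p = 1.36e-09) in spleen, where it was among the largest changes, while in breast it was among the smallest. Cdk1 lay between 10.97 and 12.01 (median 11.68) in tumor-bearing spleen, against 6.53 to 11.91 (median 10.60) in control spleen, a change of 1.39 ± 0.22 (adjusted p = 1.08e-05). For Top2a the ranges were 11.36 to 12.21 (median 11.90) in tumor-bearing mice and 5.74 to 12.15 (median 10.82) in controls, and the change was 1.49 ± 0.28 (adjusted p = 8.35e-05). Mki67 spanned 12.39 to 13.67 (median 13.54) in tumor-bearing mice, against 7.55 to 13.63 (median 12.66), a change of 1.24 ± 0.26 (adjusted p = 0.000286). Tumor-bearing mice lay in a narrow band near the top of the control range for these 3 genes.

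Few arrays held the extremes of the control group. Control 13 held the lowest control value of 25 members and control 21 that of 16, and control 16, which does not stand apart over all genes, held the highest of 43. Without the 3 pairs with outlying arrays (9, 13 and 21), all 44 members rose (22 pairs, 28.9% of all genes), with a median of 1.21 in place of 1.50. The largest changes were then those of Cdc25c (1.64), Kif20a (1.51) and Cenpe (1.48), and the smallest was that of the condensin subunit Smc4, at 0.29, which is 0.56 with all pairs. Across the 25 pairs, all 44 members were higher in 21, and the fewest higher in any pair was 37 (pair 16, median change 0.18). The 44 members were each higher in at least 20 pairs, against 20.6% of all genes, and 19.8% of all genes were lower in as many.

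In the later ID block the median member change was 1.67, in the earlier 1.20, and the test between blocks called 0 members by limma, with 0 at an unadjusted p under 0.05. By role in spleen, the checkpoint genes rose by 0.98 (Mad2l1) to 1.75 (Bub1) and the kinesins by 0.93 (Kif22) to 1.75 (Kif20a). The passenger complex rose by 1.16 (Incenp) to 1.60 (Birc5) and the spindle microtubule proteins by 1.37 (Nusap1) to 1.72 (Tpx2). Foxm1 rose by 0.68 ± 0.10 (adjusted p = 3.87e-06). Markers of several lineages moved in the same mice. All 5 measured primary granule markers of neutrophil precursors rose, with a summed intensity of 332 to 56438 (median 26752) in tumor-bearing and 437 to 9253 (median 3113) in control spleen. Erythroid markers rose in 10 of 11, with sums of 3925 to 93943 (median 82495) in tumor-bearing and 4426 to 95811 (median 48063) in control spleen, and B cell markers fell in 4 of 9, with sums of 5531 to 39611 (median 27951) and 677 to 54122 (median 47794). The 3′ to 5′ log2 ratio of Gapdh was -0.18 ± 0.19 in tumor-bearing and -0.30 ± 0.12 in control spleen (SD, n = 25 each), a difference of 0.12 ± 0.05 (permutation p = 0.013, adjusted p = 0.0432), whose part was not tested. The same ratio of the actin control probe sets differed by 0.05 ± 0.04 and did not pass (permutation p = 0.255, adjusted p = 0.386). All 9 late neutrophil markers and 7 of 8 megakaryocyte and platelet markers rose too. No gene of these lists was at the floor in all arrays. Beyond the correlations given further on, their part in the member changes was not tested.

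**Figure D3:**
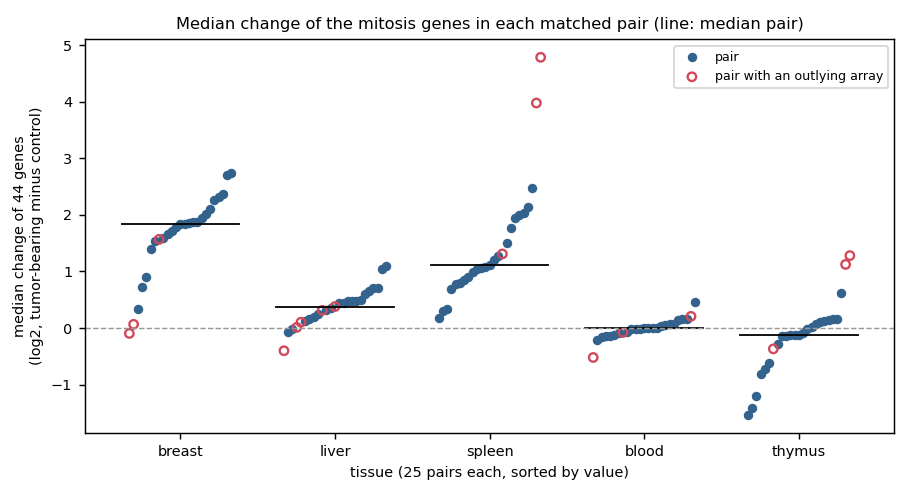
Median change of the 44 members in each matched pair (log2, tumor-bearing minus control), sorted within each tissue, with a line at the median pair. Open circles are pairs with an outlying array. Breast reaches 2.73 and spleen 4.79 (an open circle), liver lies mostly above 0, blood is centred on 0, and thymus has a tail down to -1.53.

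In liver, 25 of the 44 members rose and 0 fell, against 7.89% of all genes that rose and 2.28% that fell (10.2% in all). At an unadjusted p under 0.05 the limma counts were 34 higher and 0 lower. The median member change was 0.37, between -0.12 and 0.98, against 0.01 for all genes. Ccnb2 lay between 4.90 and 8.59 (median 5.88) in tumor-bearing liver and between 4.36 and 6.13 (median 4.94) in control liver, with 7 tumor-bearing mice above every control. It rose by 0.98 ± 0.14 (adjusted p = 1.33e-05), in 22 of 25 pairs. Cdc20 lay between 6.26 and 9.56 (median 6.79) in tumor-bearing mice, against 4.87 to 7.56 (median 6.02) in controls, a change of 0.93 ± 0.17 (adjusted p = 0.000202). Nek2, a centrosome kinase, spanned 5.60 to 7.78 (median 6.28) in tumor-bearing and 4.88 to 6.77 (median 5.44) in control mice, a change of 0.87 ± 0.12 (adjusted p = 8.41e-06). Groups overlapped for both genes, and Nek2 was higher in 24 pairs.

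Nusap1, which bundles spindle microtubules, had the most regular change in liver. It lay between 5.55 and 7.16 (median 6.06) in tumor-bearing mice and between 4.65 and 5.77 (median 5.27) in controls. All 25 pairs were higher in the tumor-bearing mouse, and 21 tumor-bearing mice lay above the highest control. It rose by 0.80 ± 0.08 (adjusted p = 2.05e-08). Mki67 lay between 5.49 and 7.78 (median 6.28) in tumor-bearing liver, against 4.52 to 8.03 (median 5.36) in controls, a change of 0.87 ± 0.16 (adjusted p = 0.000325). Top2a lay between 4.80 and 7.46 (median 5.56), against 4.11 to 7.50 (median 4.64), a change of 0.78 ± 0.17 (adjusted p = 0.0024). Cdk1 lay between 6.73 and 8.80 (median 7.38), against 6.22 to 8.44 (median 6.88), a change of 0.62 ± 0.13 (adjusted p = 0.00162). The value furthest against the majority was that of Foxm1, at -0.12 ± 0.08 (4.96 to 6.18 in tumor-bearing and 5.29 to 6.85 in control liver), which did not pass the test (adjusted p = 0.417).

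All 5 chromosome structure genes rose in liver, from Smc4 (0.46) to Mki67. In the passenger complex Birc5 (0.73), Incenp (0.56) and Cdca8 (0.55) rose, and Aurkb was at 0.13 ± 0.13 (adjusted p = 0.602). The rise of Cdca8 was not seen when probe sets of shared sequence were left out. Of the kinesins Kif22 (0.54) and Kif23 (0.32) rose, with the other 4 between 0.10 and 0.27. In the checkpoint Mad2l1 (0.40) and Bub1 (0.34) rose, at kinetochores Spc25, Cenpf and Nuf2, and in cytokinesis neither Ect2 (0.40) nor Anln (0.19) passed.

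The liver count varied with the pairs used. Without the 5 pairs with outlying arrays (controls 2, 7 and 8 and tumor-bearing mice 15 and 17), 41 of 44 members rose (20 pairs, median 0.38), as did 18.6% of all genes. Aurkb was then at 0.30 (adjusted p = 0.00049) and Anln at 0.45 (adjusted p = 0.005), and the members not called were Ect2, Cdc25c and Foxm1. In the earlier block alone (10 pairs) 1 member was called, where 85 of all 18194 genes rose and 10 fell. In the later block (15 pairs) 30 members were called, where 2209 genes rose and 2120 fell. The median member change was 0.38 in both blocks. The test of the difference between blocks called 0 members (1 at an unadjusted p under 0.05) and 0% of all genes. Primary granule markers rose in 5 of 5, with summed intensities of 601 to 6434 (median 2834) in tumor-bearing and 166 to 328 (median 199.6) in control liver, and late neutrophil markers in 9 of 9, with sums of 5675 to 43743 (median 18500) and 542 to 1736 (median 1121). Of the 9 measured hepatocyte markers 0 passed limma's test, with 1 higher and 1 lower at an unadjusted p under 0.05. Markers of other cell types rose in the same livers. Fibroblast markers rose in 6 of 8, with sums of 5747 to 13814 (median 10852) in tumor-bearing and 689 to 8557 (median 6066) in control liver. Endothelial markers rose in 5 of 8, with sums of 1967 to 4679 (median 3694) in tumor-bearing and 503 to 2826 (median 2524) in control liver. Plasma cell markers rose in 4 of 8, with sums of 7730 to 14847 (median 13214) in tumor-bearing and 771 to 11807 (median 10102) in control liver. Macrophage markers rose in 3 of 9 (sums of 8502 to 19284, median 15731, in tumor-bearing and 783 to 17625, median 12847, in control liver), and megakaryocyte and platelet markers in 4 of 8 (429 to 849, median 582, in tumor-bearing and 334 to 789, median 391, in control liver). The part of these cell types was not tested beyond the correlations given further on.

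Blood cells gave a narrow result. Of the 44 members 5 rose and 0 fell, against 8.66% of all genes that rose and 4.27% that fell. At an unadjusted p under 0.05 the limma counts were 6 higher and 5 lower. In at least 20 of 25 pairs, 4 members were higher and 3 lower, against 7.91% and 5.14% of all genes. The number of members that rose, and those higher or lower in at least 20 pairs, lie near the shares of all genes. The median member change was -0.04, against -0.03 for all genes. Ccnb2 lay between 5.65 and 7.75 (median 6.72) in tumor-bearing blood and between 4.94 and 7.32 (median 5.85) in control blood. It rose by 0.91 ± 0.11 (adjusted p = 1.72e-06), in 23 pairs, with overlap. Ccna2, the cyclin of S phase and early mitosis, lay between 6.73 and 8.55 (median 7.72) in tumor-bearing mice, against 5.27 to 7.63 (median 6.90), and 15 tumor-bearing mice lay above every control. It rose by 0.88 ± 0.13 (adjusted p = 1.73e-05). Kif23, a motor of the central spindle, spanned 6.44 to 7.95 (median 7.03) in tumor-bearing and 5.997 to 7.26 (median 6.34) in control mice. Kif23 rose by 0.66 ± 0.07 (adjusted p = 2.22e-07), in 24 of 25 pairs.

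Mki67 in blood lay between 8.86 and 10.52 (median 9.47) in tumor-bearing mice, against 5.60 to 9.80 (median 8.87) in controls, a change of 0.63 ± 0.16 (adjusted p = 0.00619). Nusap1 lay between 10.18 and 11.59 (median 10.87), against 7.51 to 11.28 (median 10.72), a change of 0.53 ± 0.16 (adjusted p = 0.0237) with 19 pairs higher. Both genes overlapped between groups, and each had 7 tumor-bearing mice above every control. Cdk1, the partner of both cyclins, was at -0.10 ± 0.09 (4.92 to 6.30, median 5.38, in tumor-bearing blood, and 5.02 to 6.82, median 5.50, in control blood), and its adjusted p was 0.602. Top2a was at -0.09 ± 0.12 (4.52 to 6.75, median 5.12, against 4.57 to 6.25, median 5.19), with an adjusted p of 0.736. The condensin subunit Smc4 had the largest value against the members that rose, at -0.41 ± 0.16 (adjusted p = 0.0986). It was lower in 22 of 25 pairs, at 8.63 to 9.49 (median 8.97) in tumor-bearing and 6.33 to 10.42 (median 9.43) in control blood.

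Many members were dim in blood, and Kif20a and Bub1 lay at the floor in most blood arrays. Without the 3 pairs with outlying arrays (controls 7, 9 and 13), 6 members rose, with Ube2c (0.24, adjusted p = 0.01) added, against 10% of all genes. In that setting 4 fell, namely Smc4 (-0.52), Smc2 (-0.41), Kif22 (-0.35) and Cenpf (-0.17), against 13.2% of all genes. Neither count lies far from the share of all genes. All 9 late neutrophil markers rose in blood, with summed intensities of 16903 to 79745 (median 37549) in tumor-bearing and 782 to 11105 (median 4592) in control mice. Erythroid markers rose in 6 of 11, with sums of 33588 to 47539 (median 38828) and 7076 to 40358 (median 34753), and B cell markers fell in 8 of 9, with sums of 326 to 4875 (median 761) and 483 to 7535 (median 1913). Their part in the member values was not tested.

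In thymus 0 of the 44 members passed the limma test, against 0.011% of all genes, and at an unadjusted p under 0.05 the counts were 0 higher and 3 lower. All 44 values lay below 0, with a median of -0.16 and a lowest value of -0.31 (Aurka). Cdk1 lay between 9.67 and 11.64 (median 11.09) in tumor-bearing thymus and between 9.67 and 12.00 (median 11.45) in control thymus, a difference of -0.26 ± 0.14 (adjusted p = 0.995). Top2a lay between 10.65 and 12.65 (median 12.06), against 9.53 to 12.89 (median 12.27), a difference of -0.11 ± 0.15 (adjusted p = 0.995). Mki67 lay between 11.22 and 12.91 (median 12.48), against 9.80 to 13.50 (median 12.60), a difference of -0.06 ± 0.14 (adjusted p = 0.995). The groups overlapped over nearly the whole range for these 3 genes.

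Thymus pairs varied widely. The number of members higher in the tumor-bearing mouse ran from 0 to 44 per pair, with 0 in 3 pairs and 44 in 1. The median member change was -1.53 in pair 8, -1.42 in pair 9 and -1.20 in pair 14, none of which has an outlying array, and Rag1, the recombinase of developing thymocytes, changed by -0.89, -0.87 and -0.97 there. Pairs 2 and 11, at 1.28 and 1.12, both have an outlying control. Without the 3 pairs with outlying arrays (controls 2, 11 and 20), 0 members were called by limma (22 pairs, 0.0824% of all genes rose). At an unadjusted p under 0.05 the limma counts were then 0 higher and 24 lower, and the share of all genes at that threshold was not counted. Top2a was at -0.25, and the member values lay between -0.43 and -0.13 with a median of -0.26. The 9 thymocyte markers did not pass the test in either direction. Their summed intensities were 27706 to 63635 (median 53515) in tumor-bearing and 2963 to 68521 (median 55479) in control thymus. With every pair kept, the changes of all 9 lay above 0, between 0.06 and 0.46 with a median of 0.19. That setting includes the outlying controls 2, 11 and 20. Their mean thymocyte marker levels were 10.75, 6.86 and 7.90 (log2 intensity), against a control group median of 12.17.

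Changes were then compared between tissues, within the 15 leading parts of the sample IDs, so that tissues of the same mice were not treated as independent. Breast exceeded liver in 43 members (39.6% of all genes differed in either direction). The member not called was Smc4 (0.29, adjusted p = 0.192), and the largest differences were those of Bub1 (1.87 ± 0.20) and Ect2 (1.86 ± 0.24). Breast exceeded blood in 42 members (44.9% of all genes) and thymus in 44 (44.7%). Spleen exceeded blood in 41 members (19%) and thymus in 43 (21.5%). In liver minus spleen, 35 members were lower (20.1%), led by Cdc25c (-1.80 ± 0.20), while Ccnb2 (-0.58, adjusted p = 0.175), Cdc20 (-0.36, adjusted p = 0.391) and Mki67 (-0.37, adjusted p = 0.268) did not pass.

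Breast and spleen differed in few members, 9 of 44, where 54.1% of all genes differed. Larger in breast were Ect2 (1.08 ± 0.20, adjusted p = 0.000219), Cdk1 (0.97 ± 0.31, adjusted p = 0.0141), Ube2c (0.88 ± 0.29), Spc25 (0.75 ± 0.25) and Cdc20 (0.74 ± 0.28). Larger in spleen were Cdc25c (-0.87 ± 0.23, adjusted p = 0.00445), Kif4 (-0.71 ± 0.21), Kif2c (-0.41 ± 0.16) and Foxm1 (-0.37 ± 0.15). With the pairs of both tissues treated as independent and those with outlying arrays left out, 29 members were larger in breast, and the share of all genes was not counted there. Liver exceeded blood in 16 members (11.2% of all genes), among them Cdc20 (1.16 ± 0.19), Nek2 (0.92 ± 0.16) and Smc4 (0.87 ± 0.22), and thymus in 17 (2.95%). Blood exceeded thymus in 2 members, the cyclins Ccnb2 (1.03 ± 0.25, adjusted p = 0.0239) and Ccna2 (0.99 ± 0.22, adjusted p = 0.0115), where 4.38% of all genes differed.

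Other probe sets of the members gave a check on each gene. Over all 104 probe sets, 91 rose and 2 fell in breast (32.7% and 28.8% of all probe sets with 1 symbol), 96 rose in spleen (20.4%), 30 in liver (6.08%), and 6 rose and 1 fell in blood (8.11% and 3.5%). The count in thymus was 0 (0.00858% of all probe sets rose). Of the 60 probe sets not chosen as the brightest of their gene, 47 rose and 2 fell in breast, 52 rose in spleen, 5 rose in liver, 1 rose and 1 fell in blood and 0 passed in thymus. The liver count of 5 of 60 stands beside 6.08% of all probe sets. All probe sets of a gene rose in 19 of the 30 genes with more than 1 in breast, 23 in spleen, 2 in liver, 1 in blood and 0 in thymus. Probe sets disagreed in sign past the test for 2 members in breast. Foxm1 had 3 probe sets that rose, by 0.31 to 0.64, and 1 that fell by 0.15. Cenpa had 2 that rose, by 0.77 and 1.43, and 1 that fell by 0.32.

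Genes of the same process outside the list were read from 5 further lists. Of 72 other measured mitosis genes, 64 rose and 1 fell in breast, 17 rose and 2 fell in liver, 69 rose and 1 fell in spleen, 4 rose and 3 fell in blood, and 0 passed in thymus (9 lower at an unadjusted p under 0.05). Of all genes, 30% rose and 32.3% fell in breast, and 7.89% and 2.28% in liver. The shares were 22.4% and 18.3% in spleen, 8.66% and 4.27% in blood, and 0.011% and 0% in thymus. They apply to the other lists too. In blood both counts of this list lie near or below them. In breast the largest were Psrc1 (3.73 ± 0.30), Pbk (2.96 ± 0.23) and Spag5 (2.55 ± 0.24). Psrc1, a microtubule-binding protein of the spindle, lay between 8.50 and 11.27 (median 10.86) in tumor-bearing breast and between 5.12 and 10.78 (median 6.75) in control breast, a larger change than that of any member. In liver the centromere protein gene Cenpm rose by 0.98 ± 0.12, Pbk by 0.65 ± 0.12 and Ckap2 by 0.63 ± 0.15, and the kinetochore genes Spc24 (-0.44) and Nsl1 (-0.33) fell. Spleen was led by Cdca5 (1.75 ± 0.27), which protects cohesion, Cdkn3 (1.72 ± 0.18) and Depdc1a (1.67 ± 0.26). In blood Cenpq (0.46 ± 0.09), Pttg1 (0.42 ± 0.10), which encodes securin, and Arhgap11a (0.40 ± 0.12) rose.

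S phase genes rose with the members in breast and spleen, all 24 measured genes in each, with medians of 0.75 and 1.10. The leading ones were Rrm2 (2.38 ± 0.19), Tk1 (1.87 ± 0.16) and Chaf1b (1.50 ± 0.17) in breast and Cdc45 (1.65 ± 0.17), Cdc6 (1.59 ± 0.27) and Uhrf1 (1.51 ± 0.25) in spleen. In liver 12 of 24 rose, led by the helicase subunits Mcm6 (1.37 ± 0.23), Mcm5 (1.05 ± 0.21) and Mcm4 (1.00 ± 0.19). In blood 1 rose and 3 fell, namely Rrm2 (-0.55 ± 0.13), Prim1 (-0.38 ± 0.11) and Rfc4 (-0.26 ± 0.08), while Ccna2 and Ccnb2 rose in the same samples. In thymus 0 of the 24 passed limma's test, and 0 had an unadjusted p under 0.05.

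Control genes of the earlier cycle were mixed. Among 29 measured G1 cyclins, E2F and pocket proteins and CDK inhibitors, 17 rose and 6 fell in breast. The largest changes there were falls of the CDK inhibitors Cdkn1c (-2.45 ± 0.23) and Cdkn2c (-2.43 ± 0.19) and a rise of cyclin D1, Ccnd1 (2.28 ± 0.20). In spleen 20 rose and 4 fell, led by E2f7 (1.70 ± 0.17), E2f8 (1.62 ± 0.24) and Mybl2 (1.52 ± 0.16), which encodes a subunit of the activating complex at CHR promoters. In liver 6 rose, led by Cdkn1a (0.76 ± 0.14), Rbl1 (0.49 ± 0.11) and Ccne1 (0.45 ± 0.13), and in thymus 0 passed by limma (1 lower at an unadjusted p under 0.05). In blood 4 rose and 1 fell, led by the inhibitor Cdkn2d (1.01 ± 0.14), Rb1 (0.76 ± 0.14) and Cdkn2c (0.66 ± 0.14).

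Lists of other genes of the pathway were counted as well. Of 15 measured subunits and partners of the anaphase promoting complex, 9 rose and 3 fell in breast, 7 rose in spleen, 1 rose in blood and 0 passed in liver by limma (1 higher at an unadjusted p under 0.05). Their median changes were 0.24 in breast, 0.12 in spleen, 0.04 in blood and 0.16 in liver. In thymus 0 passed, and 0 had an unadjusted p under 0.05. The blood count of 1 lies near the share of all genes that rose there, 8.66%. Fzr1, the activator that replaces Cdc20 after anaphase, led in breast (1.29 ± 0.19), spleen (0.94 ± 0.12) and blood (0.98 ± 0.16). Anapc13 fell in breast (-0.54 ± 0.07), Anapc10 rose there (0.48 ± 0.10), and in spleen Anapc15 (0.49 ± 0.06) and Cdc27 (0.40 ± 0.05) rose. Among 10 cohesin genes, 5 rose and 1 fell in breast, 5 rose in spleen and 2 in blood, while 0 passed by limma in liver (1 higher at an unadjusted p under 0.05) and in thymus (0). Esco2, the S phase acetyltransferase that locks cohesin, led in breast (0.77 ± 0.12), spleen (1.77 ± 0.27) and blood (0.91 ± 0.14). Stag1 (0.39 ± 0.08) and Pds5a (0.36 ± 0.08) followed in breast, and Wapl (0.54 ± 0.06 in spleen and 0.84 ± 0.15 in blood) with Smc3 (0.49 ± 0.07 in spleen).

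**Figure D4:**
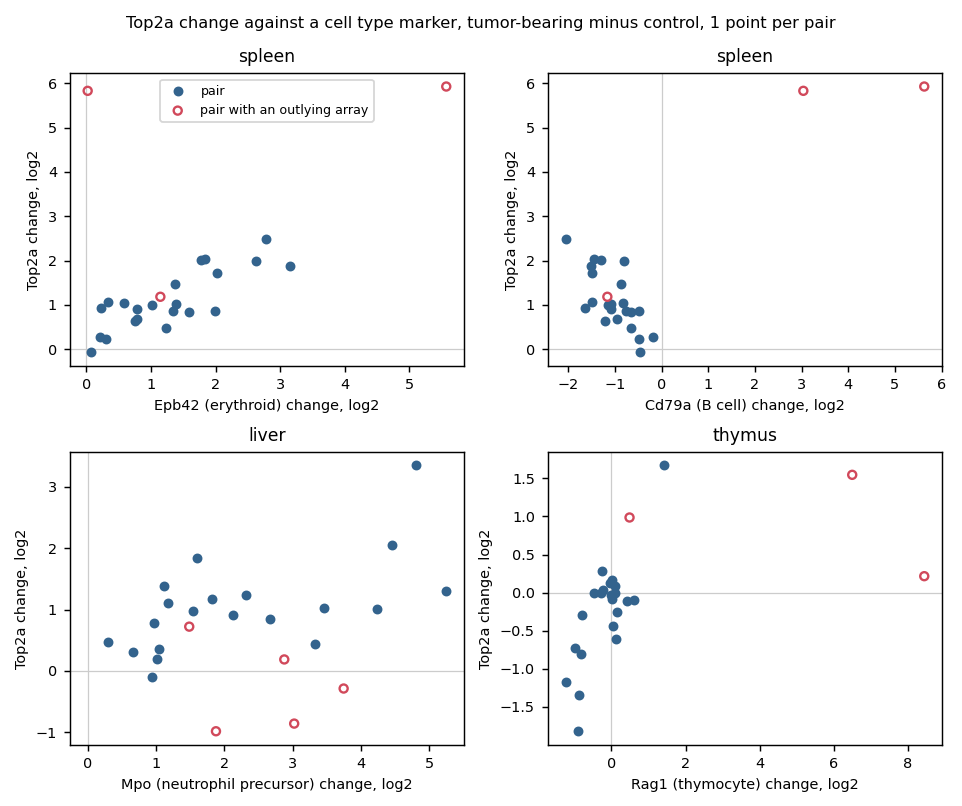
Change of Top2a (vertical, log2) against the change of a cell type marker (horizontal, log2) in each matched pair, for Epb42 and Cd79a in spleen, Mpo in liver and Rag1 in thymus. Open circles are pairs with an outlying array. Without those, Pearson r is 0.80 for Epb42, -0.71 for Cd79a, 0.60 for Mpo and 0.79 for Rag1.

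Within a tissue, the change of Top2a was set against that of marker genes of other cell types over the pairs, in 15 correlations adjusted together. Both axes of a pair share its 2 arrays. With all 25 pairs, 5 of 15 Pearson correlations passed, and without pairs with outlying arrays 7 did. Of the Spearman correlations, 3 of 15 passed with all pairs and 4 without. In spleen, Top2a followed Epb42, an erythroid membrane protein, with r = 0.55 over 25 pairs (permutation p = 0.0155, adjusted p = 0.0466) and Spearman's rho = 0.55 (p = 0.00528, adjusted p = 0.0295). The r was 0.15 without the 2 pairs farthest from the median Epb42 change. Over the 22 pairs without outlying arrays, r was 0.80 (permutation p = 1e-05, which no 100000 permutations can go below, adjusted p = 0.00015) and rho 0.70 (p = 0.00052, adjusted p = 0.0039), with 0.75 after leaving out the 2 farthest pairs. It was 0.79 in the earlier block (10 pairs) and 0.83 in the later (12 pairs).

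The B cell gene Cd79a turned sign in spleen with the outlying pairs. Its r with Top2a was 0.76 over 25 pairs (permutation p = 0.00329, adjusted p = 0.0165), with rho = -0.33 (p = 0.106, adjusted p = 0.226), and -0.71 without the 2 farthest pairs. Over 22 pairs r was -0.71 (permutation p = 0.00027, adjusted p = 0.00135) and rho -0.72 (p = 0.00026, adjusted p = 0.0039), with -0.72 and -0.81 in the earlier and later blocks. Mpo, the myeloperoxidase of neutrophil precursors, gave r = 0.15 in spleen over 25 pairs (adjusted p = 0.52 by permutation) and 0.56 over 22 (permutation p = 0.0063, adjusted p = 0.0189, rho = 0.60, adjusted p = 0.013), but the later block alone gave 0.40.

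In liver, Top2a and Mpo gave r = 0.35 over 25 pairs (permutation p = 0.0897, adjusted p = 0.149). Over the 20 pairs without outlying arrays r was 0.60 (permutation p = 0.00409, adjusted p = 0.0153) and rho 0.65 (p = 0.00269, adjusted p = 0.013), with 0.48 after leaving out the 2 farthest pairs, 0.57 in the earlier block (7 pairs) and 0.54 in the later (13 pairs). The erythroid gene Epb42 gave r = -0.17 in liver over 25 pairs (adjusted p = 0.52 by permutation). Over 20 pairs r was -0.56 (permutation p = 0.0222, adjusted p = 0.0476) and rho -0.16 (p = 0.504, adjusted p = 0.687), with -0.22 after leaving out the 2 farthest pairs, so that the relation rested on those pairs. It was -0.14 in the earlier block (7 pairs) and -0.70 in the later (13 pairs). In thymus, Rag1 gave r = 0.52 over 25 pairs (permutation p = 0.0118, adjusted p = 0.0441) and rho = 0.61 (p = 0.00154, adjusted p = 0.0231). Over 22 pairs r was 0.79 (permutation p = 6e-05, adjusted p = 0.00045) and rho 0.46 (p = 0.0321, adjusted p = 0.0962), with 0.62 after leaving out the 2 farthest pairs. In blood, Top2a and Cd79a gave r = 0.58 over 25 pairs (permutation p = 0.00263, adjusted p = 0.0165; rho = 0.54, adjusted p = 0.0295) and 0.53 over 22 (adjusted p = 0.026 by permutation), with rho = 0.43 over 22 (adjusted p = 0.117 by permutation). Over those 22 pairs r was 0.55 in the earlier block (8 pairs) and 0.56 in the later (14 pairs). In breast, the epithelial gene Epcam gave 0.68 over 25 pairs (permutation p = 0.00027, adjusted p = 0.00405) and 0.26 over 22 (adjusted p = 0.404 by permutation), so that the relation rested on the pairs with outlying arrays.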

How the data were processed

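The authors deposited linear probe set intensity values, per the labels' protocols made from total RNA with biotin-labelled cRNA. How they summarised and normalized the intensities is not given in the sources used here. Of 45101 probe sets, 34958 carry 1 gene symbol in GEO's platform annotation, 932 several and 9211 none here. Values were floored at the 5th percentile of all values (11.3) and taken to log2. Each of 18194 genes was read by its probe set with the highest mean. Each tissue was fitted with limma 3.58.1 (R 4.3.3) with the matched pair, named in the labels, as a block, and p-values were adjusted by Benjamini-Hochberg over all genes. Matched mice deviated together (median r by tissue 0.08 for breast, 0.31 for liver, 0.15 for spleen, 0.22 for blood, 0.25 for thymus; unmatched mice gave -0.02 to 0.01). An array was outlying where its median correlation with its group lay over 5 median absolute deviations under the tissue's median. Tissues were compared with means over 15 leading parts of the sample IDs. Correlations and RNA quality ratios used 100000 permutations, two-sided (Python 3.11.15, scipy 1.17.1). The number of arrays limits the precision. The tests were tried on simulated data. Values by group are given for Cdk1, Top2a and Mki67, for the 5 called members with the largest change among those that had 20 or more of 25 pairs moving that way, and for the member furthest against the majority. Up to 3 called genes are named per pathway list. The members, lists and tests were chosen with earlier results of these data known. Alternatives covered the block, normalization, floor, filter, probe set choice, outlying arrays and ID blocks. Using Epb42 as the erythroid marker, and comparing tissues as independent pairs without outlying arrays, were chosen after seeing the data. Promoter letters come from RefSeq (GRCm38.p6).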

Additional observations from a re-analysis of the deposited data

Results flagged for a closer look

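The change in tumor-bearing mice differed between tissues in at least 1 member for each of the 10 pairs of tissues, by limma's test of the difference over 18194 genes. The number of members called, with the share of all genes called in parentheses, was 43 of 44 for breast minus liver (39.6%), 9 for breast minus spleen (54.1%), 42 for breast minus blood (44.9%) and 44 for breast minus thymus (44.7%). It was 35 for liver minus spleen (20.1%), 16 for liver minus blood (11.2%) and 17 for liver minus thymus (2.95%). It was 41 for spleen minus blood (19%), 43 for spleen minus thymus (21.5%) and 2 for blood minus thymus (4.38%). For breast minus spleen the members' share lies below that of all genes, and for blood minus thymus it lies near it. Arrays of each tissue look separately normalized, and the part of that in these differences was not tested.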

How the results depend on the processing

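All 44 members rose in breast and in spleen, and 0 passed in thymus, without the pair ("no replicate block" in the model), where 23 rose in liver and 4 in blood. Of all 18194 genes, 5196 rose in breast, 3761 in spleen, 1334 in liver, 1511 in blood and 2 in thymus in that setting. Leaving out genes under the tissue's median level left 20 members in breast, 43 in spleen, 7 in liver, 21 in blood and 43 in thymus. Of these, 20 rose in breast, 43 in spleen, 6 in liver, 5 in blood and 0 in thymus. Of the 9097 genes kept, 3935 rose in breast, 3032 in spleen, 961 in liver, 1511 in blood and 4 in thymus. The liver count was 16 with the mean over probe sets (1374 of all 18194 genes rose), 41 without outlying pairs (3385) and 1 in the earlier ID block (85). In blood, 3 rose under quantile normalization (1470 of all 18194 genes did) and 2 in the earlier block (303). There, 1 fell under quantile normalization (1166 of all genes did), 1 with the mean over probe sets (987), 4 without outlying pairs (2395) and 1 in the earlier block (14). Treated as independent pairs, tissues gave 4 members higher in blood than in thymus and 1 lower in liver than in blood. Without outlying pairs as well, the counts were 29 for breast over spleen, 32 for liver over blood with 1 lower, 37 for liver over thymus and 9 for blood over thymus. The share of all genes called was not counted for tissues treated as independent pairs, so these counts cannot be set against it. Between ID blocks, limma called 0 breast members, in place of 2, without outlying pairs (13 at an unadjusted p under 0.05) and without pairs 1 and 2 (8). Correlations with Top2a became 0.26 (Epcam, breast), 0.0156 (Adipoq, breast), 0.60 (Mpo, liver), -0.56 (Epb42, liver), 0.0098 (Alb, liver), 0.56 (Mpo, spleen), -0.71 (Cd79a, spleen) and -0.14 (Cd79a, thymus) without outlying pairs, and -0.51 (Cd3e, breast, which was -0.46 with all pairs and -0.05 without outlying pairs), -0.60 (Epb42, liver) and -0.55 (Alb, liver) under quantile normalization. Signs turned for Adipoq in breast, Alb in liver, Cd79a in spleen and Cd79a in thymus. Among single genes, Cdca8 in liver was at -0.000403 without probe sets of shared sequence, and Cdk1 and Top2a in blood were at 0.0649 and 0.0634 in the earlier block. Calls of single members were lost 59 times over all alternatives, 24 of them in the earlier block of liver (10 pairs). The cause was not tested. Signal limits what can be read in blood, where 6 members reach the floor in some arrays, and in liver, where 5 do.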
